A study of Panicum sumatrense with 28 samples.

Results

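The plumule of little millet (Panicum sumatrense), a cereal with small grains, was compared with germinating seed. The comparison rests on 6 of the 28 libraries of an RNA-seq atlas of 10 tissues, chosen by their tissue label. There were 3 plumule libraries, harvested 3 days after sowing, and 3 germinating seed libraries, harvested 2 days after sowing. All plants were of genotype JK-8 and were raised in a growth chamber at 25 °C by day and 20 °C by night, and the labels name no treatment. Age and organ differ together between these groups and cannot be told apart. The labels do not say which parts of the grain and embryo the germinating seed samples held, nor whether replicates came from separate plants. The p-values therefore cover the variation among the libraries at hand, part of which may be technical.

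In grasses germination starts when the grain takes up water, and the starch and protein stored in the endosperm feed the growing seedling. The radicle, which becomes the first root, and the plumule, the embryonic shoot sheathed by the coleoptile, emerge from the grain. The plumule carries the shoot apex and the first leaves, which turn green and take over the supply of sugars once they reach light.

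The deposited table gives a TMM-scaled TPM, which is a read share corrected for transcript length and multiplied by a factor per library, for each transcript of a de novo assembly. Its identifiers are not paired with gene names, so gene functions, gene lists and marker checks of the labelled tissues were not analysed here, and no transcript sequence was used here. Of 101935 transcripts, 77548 reached a value of 1 in at least 2 of the 28 libraries and were tested. At the edge of this filter, 20554 transcripts reached 1 in a single library and were left out, with a median highest value of 3.77, and 17280 reached 1 in exactly 2 libraries and were kept, with a median highest value of 3.50. Depth is unknown in values of this kind. The library sums, which carry the scaling factor, were 897662, 800889 and 853542 in plumule libraries 1, 2 and 3, against 1084498, 949841 and 913503 in germinating seed libraries 1, 2 and 3.

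In each tissue library 1 differed from the others, by different measures. Plumule library 1 had 5513 table entries at 1 or more in no other library of the series, against 575 in plumule library 2 and 2181 in plumule library 3. In germinating seed the highest such number was in library 2, with 3425, against 1257 in library 1 and 527 in library 3. The filter left out all of these entries. Among tested transcripts, 7122 were at 1 or more in plumule library 1 and listed at 0 in the other plumule libraries. For plumule libraries 2 and 3 such transcripts numbered 1857 and 3727. With all 6 libraries, none of the 7122 was called higher in plumule and 41 were called lower. Over the tested transcripts plumule library 1 had a Spearman's rho of 0.717 with plumule library 2 and 0.678 with plumule library 3. Plumule libraries 2 and 3 correlated at 0.833. By rank, plumule library 2 correlated more closely with germinating seed library 3, at 0.737, than with plumule library 1, but on the log2 values used for the fit it did not, with a Pearson's r of 0.856 with plumule library 1 and 0.823 with germinating seed library 3. Between the 3 germinating seed libraries rho ran from 0.772 to 0.821. Transcripts are not independent replicates, so these coefficients describe the libraries and carry no p. The top 10 transcripts of germinating seed library 1 made up 14.8% of its total, against 4.33% and 4.40% in germinating seed libraries 2 and 3. Counts are therefore given with all 6 libraries and again without plumule library 1 or without germinating seed library 1.

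The plumule libraries held a broader range of transcripts than germinating seed by mean, but not beyond the spread of the libraries. Plumule libraries 1, 2 and 3 had 45996, 37235 and 41857 transcripts at 1 or more, against 35600, 40630 and 36908 in germinating seed libraries 1, 2 and 3. The groups overlapped, with a mean of 41696 ± 4383 in plumule and 37713 ± 2610 in germinating seed (SD, n = 3 each, two-sided exact permutation p = 0.2, where 0.1 is the smallest p that 3 against 3 allows). The top 10 transcripts held 4.37% ± 0.414 of the total in plumule and 7.84% ± 6.01 in germinating seed (SD, n = 3 each, exact permutation p = 0.5). Without germinating seed library 1 that seed share was 4.37% ± 0.0504 (n = 2), level with plumule. To reach 50% of the library total, 1810, 1496 and 1548 transcripts were needed in plumule libraries 1, 2 and 3, against 557, 1105 and 1072 in germinating seed libraries 1, 2 and 3. Each plumule library thus spread its total over more transcripts than any library of germinating seed.

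Between plumule and germinating seed, 6514 transcripts rose, 8.40% of those tested, and 5097 fell, 6.57% of those tested (limma, adjusted p below 0.05 and a difference of at least 1 on the log2 scale). In bulk tissue, fewer cells of a type and less RNA per cell cannot be told apart. The median log2 difference was 1.67 among the transcripts that rose and -1.62 among those that fell, and 0 over all tested transcripts. At least 4-fold differences were seen for 2261 transcripts that rose and 1739 that fell. The counts were 293 and 317 at 16-fold or more, and 75 and 58 at 64-fold or more. The 6 libraries did not overlap between the tissues for 5051 of the transcripts that rose and 4275 of those that fell. Over all tested transcripts, called or not, 12.9% had all plumule values above all seed values and 12.5% had them below.

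**Figure D1:**
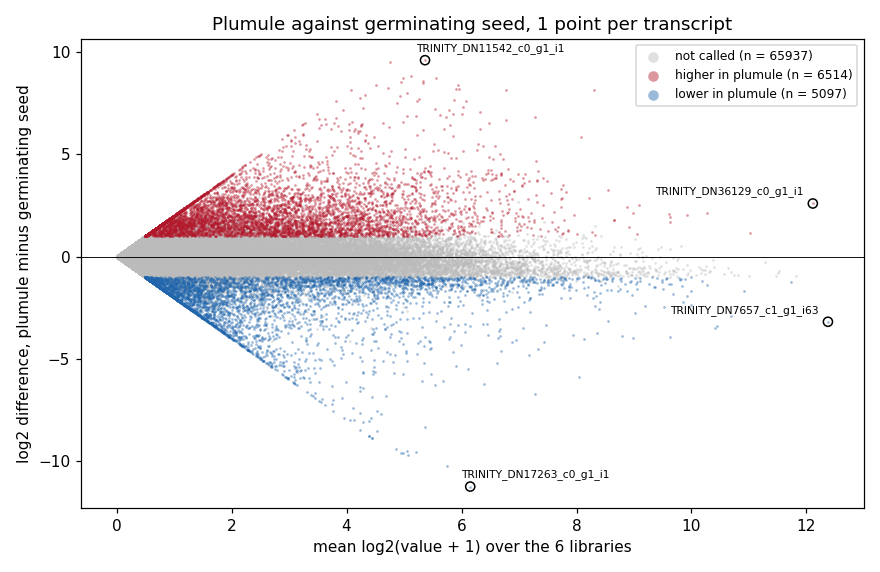
Log2 difference, plumule minus germinating seed (vertical axis), against the mean log2(value + 1) over the 6 libraries (horizontal axis), with 1 point per tested transcript. The 6514 transcripts that rose and the 5097 that fell are coloured, the 4 named transcripts are circled, and the straight outer edges are transcripts at or near 0 in 1 of the tissues.

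The balance of rises and falls differed by level. Of 56 transcripts with a mean of 1000 or more over the 6 libraries, 21 fell and 8 rose. Of 1414 with a mean from 100 to 1000, 318 fell (22.5%) and 235 rose (16.6%). The balance lay the other way at lower levels, with 1347 lower (11.4%) and 1859 higher (15.8%) among 11783 transcripts at 10 to 100, and 2820 lower (10.2%) and 3638 higher (13.2%) among 27595 at 1 to 10. Without plumule library 1 there were 20 lower and 8 higher at 1000 or more and 271 lower and 224 higher at 100 to 1000. Without germinating seed library 1 the excess of falls was all but gone at 1000 or more, with 12 lower and 11 higher of 47, and smaller at 100 to 1000, with 295 lower and 264 higher. The balance at 100 to 1000 turned with scaling, to 234 lower and 301 higher with libraries brought to a common sum and 218 lower and 250 higher with quantile normalization, while at 1000 or more 18 were lower under either scaling, against 10 higher with the common sum and 8 with quantile normalization. Over all levels, the share of calls that were lower was 43.9% with the deposited values, 35.9% with the common sum and 51.0% with quantile normalization.

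The largest rise was that of TRINITY_DN11542_c0_g1_i1, a transcript that was nearly missing from germinating seed. Its values were 1209.5, 802 and 1571 in plumule libraries 1, 2 and 3, against 2.20 in germinating seed library 1 and listings at 0 in libraries 2 and 3. All 3 plumule libraries lay far above the 3 seed libraries, and the transcript rose by 9.61 on the log2 scale (SE 0.69, limma adjusted p = 8e-10). Among the other tissues it reached its highest level in young leaf, at 9944 ± 363 (SD, n = 3), and its lowest in radicle, at 2.65 on average. Panicle early had 1064 ± 221 (SD, n = 3), close to plumule.

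TRINITY_DN36129_c0_g1_i1 had the highest plumule mean of the transcripts that rose. Plumule libraries 1, 2 and 3 had 12110.3, 8361 and 12733, against 2281, 1530.1 and 1659 in germinating seed libraries 1, 2 and 3. It was thus abundant in both tissues, without overlap, and rose by 2.60 on the log2 scale (SE 0.33, limma adjusted p = 3e-06). Young leaf again exceeded plumule, at 23873 ± 1914 (SD, n = 3), and each of the other tissues had a mean between 906 in young root and 3566 in panicle early.

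The largest fall was that of TRINITY_DN17263_c0_g1_i1, a transcript found almost only in germinating seed. It had 1.98 in plumule library 1 and was listed at 0 in libraries 2 and 3, against 5314, 3213 and 2531 in germinating seed libraries 1, 2 and 3. It fell by 11.25 on the log2 scale (SE 0.65, limma adjusted p = 4.3e-11). It was listed at 0 in every young root, vegetative stem, panicle early and panicle mid library, and its highest value outside germinating seed was 14.4, in a panicle late library.

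TRINITY_DN7657_c1_g1_i63 had the highest germinating seed mean of the transcripts that fell, and this mean rested on library 1. Its values were 1561, 2021 and 1717 in plumule libraries 1, 2 and 3, against 73379, 7082 and 7909 in germinating seed libraries 1, 2 and 3. The plumule values lay close together and below every seed value, while the seed values were about level in libraries 2 and 3 and far higher in library 1. The transcript fell by 3.19 on the log2 scale (SE 0.55, limma adjusted p = 0.00016), and by 2.09 (adjusted p = 3.6e-05) without germinating seed library 1. These SEs draw on the spread within all 10 tissues, not on the seed libraries alone. With only the compared libraries in the limma fit the SE was 11.4 (adjusted p = 0.98), and without the intensity trend as well 1.04 (adjusted p = 0.16). The transcript was far more abundant in roots, with 367564 ± 107088 in radicle (SD, n = 3) and 1135537 ± 328905 in young root (SD, n = 2). Young leaf, at 2049 ± 98.2 (SD, n = 3), was close to plumule. Among the 10 transcripts of the highest seed mean that fell, germinating seed library 1 had at least 2 times the value of either other seed library for 7, and 9 of the 10 were also lower without it. A ranking by the mean favours transcripts that are high in a single library. Among the 100 of the highest seed mean that fell, the same held for 15, and 91 were also lower without germinating seed library 1.

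**Figure D2:**
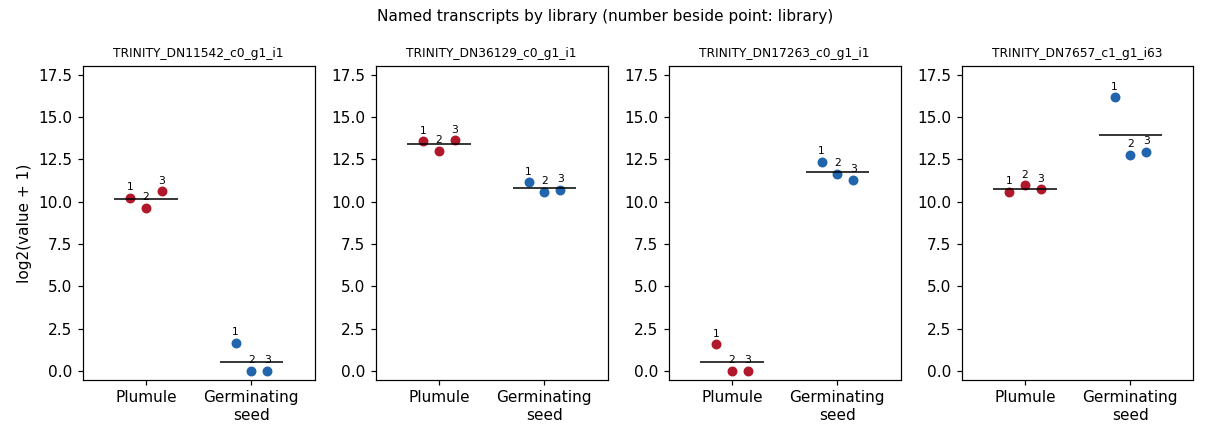
Values of the 4 named transcripts as log2(value + 1) in each plumule library (red, left) and each germinating seed library (blue, right), with the library number beside each point and the mean of the log2 values as a line. The tissues do not overlap in any panel, and germinating seed library 1 stands above libraries 2 and 3 for TRINITY_DN7657_c1_g1_i63.

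Without plumule library 1, 6979 transcripts rose (9.00% of those tested) and 4472 fell (5.77%). Of the calls made with all 6 libraries, 5660 of 6514 rises and 4258 of 5097 falls were called again, and none was called in the opposite direction. The 1319 rises gained were mostly weakly expressed transcripts that were missing from plumule library 1: it listed 1176 of them at 0, and for 862 of these plumule libraries 2 and 3 were both at 1 or more. Of the 854 rises lost, plumule library 1 was the highest plumule library for 543. Among transcripts with a mean under 1 over the 6 libraries, 1510 rose without plumule library 1, against 774 with it.

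Leaving out other libraries also moved the counts. Rises numbered 6520 without plumule library 2 and 5312 without plumule library 3. Without germinating seed library 1, 5604 transcripts rose (7.23%) and 5531 fell (7.13%). Of these, 5298 rises and 4347 falls were among those called with all 6 libraries, and no direction turned. With both library 1 left out, 6220 rose and 4914 fell.

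**Figure D3:**
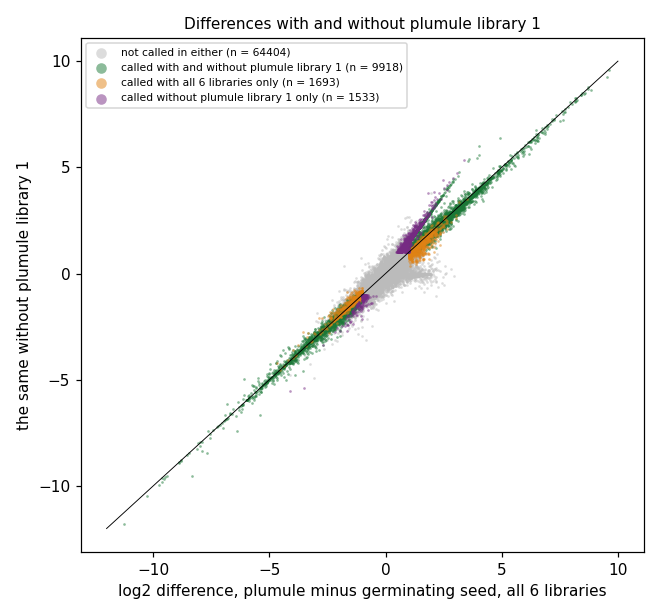
Log2 difference, plumule minus germinating seed, with all 6 libraries (horizontal axis) and without plumule library 1 (vertical axis), with 1 point per tested transcript and a line of equality. Transcripts called both times (green) follow the line at both ends, and calls made in only 1 of the fits cluster toward the threshold.

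The transcripts that rose made up a large part of the plumule and a small part of the seed. They took 29.2%, 25.4% and 32.4% of the totals of plumule libraries 1, 2 and 3, against 3.98%, 3.68% and 4.23% in germinating seed libraries 1, 2 and 3. The transcripts that fell took 7.13%, 9.31% and 7.56% in plumule libraries 1, 2 and 3, against 37.5%, 29.8% and 29.0% in germinating seed libraries 1, 2 and 3. Transcripts that were not called held 58.8% to 64.9% of the plumule totals and 57.4% to 66.4% of the seed totals. These shares follow from how the lists were chosen and carry no test.

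Outside the compared tissues the same lists took very different shares. The transcripts that rose held 48.2% to 48.9% of the young leaf totals, more than of plumule itself, 20.1% to 25.3% of panicle early, 16.2% to 16.5% of vegetative stem and 11.8% to 12.6% of crown meristem. They held 2.88% to 3.03% of radicle and 1.54% to 2.28% of young root. The list that fell ran the other way, with 48.8% to 56.8% of radicle, 65.9% and 74.8% of young root and 7.95% to 8.24% of young leaf. A single transcript weighs heavily here: when TRINITY_DN7657_c1_g1_i63 was taken out of list and totals, the share was 37.8% to 38.7% in radicle and 49.2% and 56.0% in young root. The top 10 transcripts, this one included, held 27.1% to 41.1% of the radicle totals and 59.7% and 69.6% of young root. The remaining shares may thus still rest on few transcripts of the list, which was not counted. Panicle late gave 11.1% to 17.5% to the list that fell and 5.63% to 6.66% to the list that rose. That range for the list that fell was not particular to panicle late, with 14.2% to 14.9% in crown meristem and 13.1% to 13.8% in panicle mid.

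**Figure D4:**
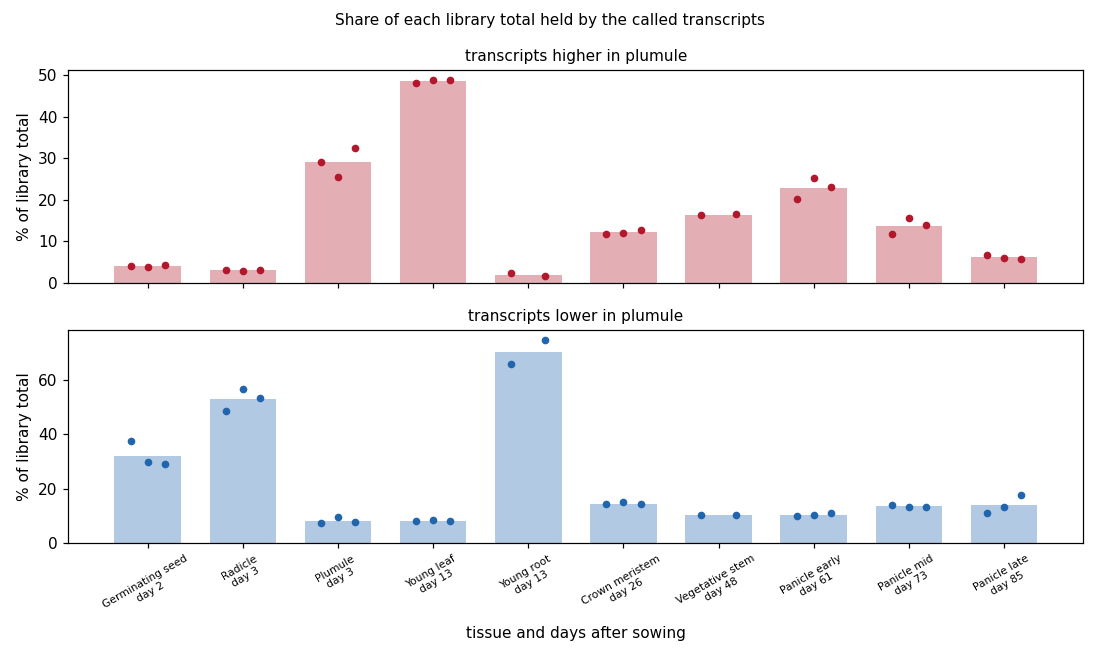
Percent of each library total held by the 6514 transcripts that rose (top) and the 5097 that fell (bottom), by tissue in order of days after sowing. Points are libraries and bars their means: the upper list is highest in young leaf, above 48%, and the lower list in young root.

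In later shoot tissues the transcripts that rose lay above the level of all tested transcripts. Their median level, as a mean log2(value + 1), was 3.03 in plumule and 0.88 in germinating seed. It was 2.11 in young leaf, 1.99 in crown meristem, 2.23 in vegetative stem and 2.36 in panicle early. Over all tested transcripts the medians of these later tissues were 0.44, 0.74, 0.55 and 0.78, in that order. In radicle the median of the transcripts that rose was 0.30 and in young root 0.33. Over all tested transcripts it was 0.31 in radicle and 0 in young root. Of the 6514, 4031 had a mean of 1 or more in young leaf (61.9%, against 40.5% of all tested) and 2284 in radicle (35.1%, against 39.1%). The share was higher still in panicle early (70.6%, against 48.2%), vegetative stem (66.4%, against 42.5%), crown meristem (65.5%, against 46.9%) and panicle mid (64.6%, against 48.9%). By this measure the list was not particular to young leaf. The highest of the 10 tissues was plumule for 3211 (49.3%, against 15.4% of all tested) and young leaf for 1589 (24.4%, against 11.7%). The plumule count follows in part from how the list was chosen. Without plumule library 1 the list was called again, with the plumule mean taken over the other libraries. Plumule was then highest for 4040 of 6979 (57.9%, against 12.1% of all tested) and young leaf for 1495 (21.4%, against 11.7%). The medians of that list were lower, at 0.49 in germinating seed, 1.14 in young leaf, 1.34 in crown meristem, 1.47 in vegetative stem, 1.73 in panicle early, 0.07 in radicle and 0 in young root.

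The transcripts that fell had their highest median level outside germinating seed in radicle. Median levels were 0.56 in plumule and 2.99 in germinating seed, with 2.35 in radicle, 1.87 in young root, 1.36 in panicle late and 0.25 in young leaf. Germinating seed was the highest tissue for 2170 of the 5097 (42.6%, against 9.80% of all tested), which follows in part from the choice of the list. Radicle was highest for 1348 (26.4%, against 10.9%). Young root, for 522 (10.2%, against 9.53%), and panicle late, for 460 (9.02%, against 7.15%), lay closer to the share of all tested. Of the 5097, 3293 had a mean of 1 or more in radicle (64.6%, against 39.1% of all tested). In the list called without germinating seed library 1 the radicle median was 1.83, and germinating seed was highest for 2746 of 5531 and radicle for 1296.

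**Figure D5:**
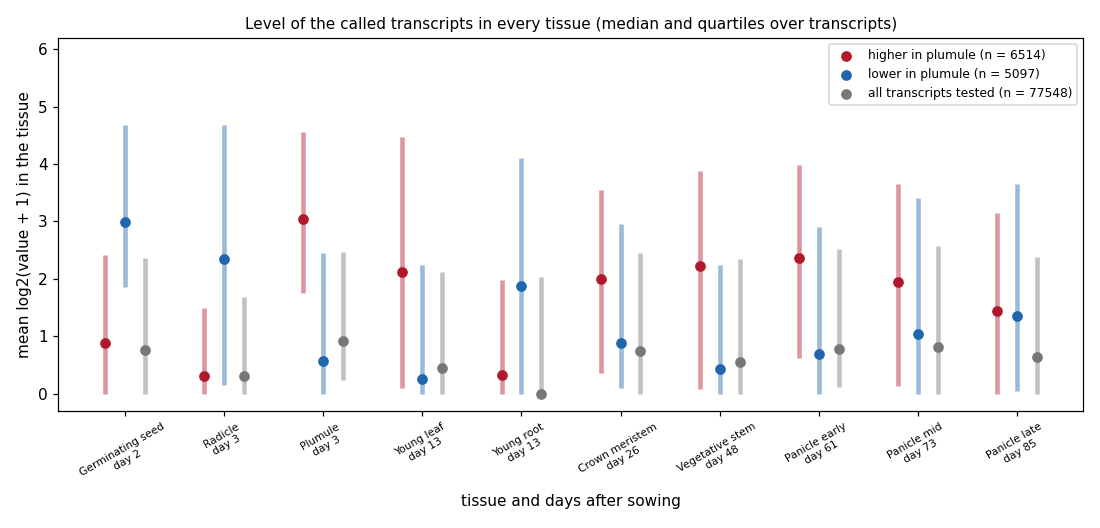
Mean log2(value + 1) in each tissue for the transcripts that rose (red), those that fell (blue) and all tested (grey), as the median (point) and quartiles (line) over transcripts. The red medians exceed 1.9 in young leaf, crown meristem, vegetative stem, panicle early and panicle mid, and the blue medians are highest in germinating seed, radicle and young root.

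A comparison with no library in common was used to place these transcripts between shoot and root. Its calls still share 1 estimate of the spread over all 28 libraries with those of plumule against seed, so they are not fully independent. Between young leaf and young root, both taken at 13 days, 12469 transcripts were higher in leaf (16.1% of those tested) and 9755 lower (12.6%). Of the transcripts that rose in plumule, 3027 were higher in young leaf than in young root (46.5% of this list and 24.3% of the leaf list) and 426 were lower (6.54%). Of those that fell in plumule, 1894 were lower in young leaf (37.2% of this list and 19.4% of the root list) and 407 higher (7.99%). The median leaf-minus-root log2 difference was 0.90 in the list that rose, -0.37 in the list that fell and 0 over all tested. For the lists called without plumule library 1 the shares were 40.1% higher in leaf for the transcripts that rose and 38.0% lower in leaf for those that fell, with medians of 0.43 and -0.34. For the lists called without germinating seed library 1 they were 50.1% and 33.1%, with medians of 1.15 and -0.0028, so that the median of the list that fell was then level with that of all tested. The split of leaf-root calls depends on scaling: 43.9% were lower in leaf with the deposited values, 22.5% with a common sum and 58.5% with median centring, which moved the median difference of all transcripts by -0.378. Under that centring 40.8% of the transcripts that rose were higher in leaf (12.1% of all tested) and 43.6% of those that fell were lower (17.0% of all tested). With a common sum these shares were 49.4% (21.5% of all tested) and 24.3% (6.25% of all tested), and 3.32% of the transcripts that rose were lower in leaf. With only the compared libraries in each fit, 53.0% of the transcripts that rose were higher in leaf (9.99% of all tested). Of those that fell, 33.9% were then lower in leaf (7.52% of all tested).

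Larger rises lay more often in leaf. Of 293 transcripts that rose 16-fold or more, 259 were higher in young leaf than in young root (88.4%), against 1285 of 1968 at 4-fold to 16-fold (65.3%) and 1483 of 4253 below 4-fold (34.9%). Without plumule library 1 these shares were 82.5%, 49.6% and 31.5%, and without germinating seed library 1 they were 89.7%, 65.1% and 38.1%. These 293 were also more abundant, with a median log2 level of 6.68 in plumule, 1.17 in germinating seed and 7.82 in young leaf. Young leaf was the highest tissue for 186 of them (63.5%, against 11.7% of all tested). Of the 100 transcripts that rose with the highest plumule mean, 86 were higher in young leaf than in young root, 55 had a young leaf mean above the plumule mean and 95 also rose without plumule library 1. Over all tested transcripts 16.1% were higher in leaf, and 28.35% when the filter asked for a value of 5 in 2 libraries. The share among all tested transcripts of like abundance was not counted, so the counts among the 100 are not read as a trait of the transcripts that rose. Level and size of difference move together in these groups, and their separate part was not tested.

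A further comparison that shares no library, but the same estimate of the spread, set panicle late (85 days) against panicle mid (73 days). There 2176 transcripts were higher in panicle late (2.81% of those tested) and 3999 lower (5.16%). Of the transcripts that fell in plumule, 506 were higher in panicle late (9.93% of this list and 23.3% of the panicle list) and 233 were lower (4.57%). Of those that rose in plumule, 137 were higher in panicle late (2.10%) and 829 lower (12.7% of this list and 20.7% of the panicle list). Among the 317 transcripts that fell 16-fold or more, 87 were higher in panicle late than in panicle mid (27.4%), and 153 were lower in young leaf than in young root (48.3%). In the list called without plumule library 1, 10.6% of the transcripts that fell were higher in panicle late, and in that called without germinating seed library 1, 8.90%. The share of panicle calls that were lower was 64.8% with the deposited values, 87.5% with a common sum, which moved the median difference of all transcripts by -0.173, and 54.2% with quantile normalization. The share of fallen transcripts that were higher in panicle late was 8.0% with a common sum (1.91% of all tested) and 10.6% with quantile normalization (3.33% of all tested). With the common sum 28.1% of the transcripts that rose were lower in panicle late, 2301 in number, and 12.8% of those that fell, beside 13.3% of all tested. With only the compared libraries in each fit, 1.58% of the transcripts that fell were higher in panicle late (0.26% of all tested) and 2.10% of those that rose were lower (0.32% of all tested).

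Many differences were between a low value and a listing at 0. Of the transcripts that rose, 1882 were listed at 0 in all 3 germinating seed libraries, and their plumule means were low, with a median of 2.40 and 87 at 10 or more. Of these, 1170 had a mean under 1 in every tissue but plumule, 346 reached 1 in young leaf and 454 in panicle early. Of the transcripts that fell, 1533 were listed at 0 in all 3 plumule libraries, with a median seed mean of 2.79 and 184 at 10 or more. Of these, 618 had a mean under 1 in every tissue but germinating seed, 520 reached 1 in radicle, 414 in young root, 292 in panicle late and 61 in young leaf. How often all tested transcripts are under 1 in every tissue but 1 was not counted. The 1170 and 618 are therefore not read as restricted to a tissue. The share of all tested transcripts listed at 0 throughout a tissue was not counted either. Their lower quartile, as a mean log2(value + 1), was itself 0 in germinating seed and 0.23 in plumule. Listings at 0 were thus common in seed among transcripts that were not called, and the 1882 and 1533 are not read as an excess. In the other tissues named here, the weakly expressed transcripts of both sets lay below the share of all tested transcripts. This follows in part from how they were chosen and was not tested. Of the 1882, 24.1% reached 1 in panicle early and 18.4% in young leaf, against 48.2% and 40.5% of all tested, and of the 1533, 33.9% reached 1 in radicle and 27.0% in young root, against 39.1% and 40.8% of all tested. When plumule library 1 was left out, 1682 of the 1882 and 1293 of the 1533 were called again.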

How the data were processed

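Total RNA was made into TruSeq libraries, and either of 2 extraction methods was used, with no record per library, per the labels. Per the labels, the authors assembled the reads with Trinity and estimated TPM with kallisto; the submitters' processing notes also list CASAVA and Trimmomatic, with no version. The deposited signal values are those TPM after TMM scaling, per the name of the table, and keep no read depth, so no count model or counting interval was used. All value columns matched 1 sample each by title.

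From the table, transcripts at 1 or more in at least 2 of 28 libraries were kept and log2(value + 1) was fitted with limma 3.58.1 (R 4.3.3), with 1 mean per tissue over all 28 libraries (18 residual degrees of freedom), an intensity trend and no covariates. Calls needed a Benjamini-Hochberg adjusted p below 0.05 over all 77548 transcripts, two-sided, and a log2 difference of 1 or more in size. This scale understates changes of low transcripts. The fit was run on simulated log2 values with normal noise and changes of 4-fold and 16-fold planted in better expressed transcripts. Smaller changes, changes of weak transcripts and changes from a listing at 0 were not simulated. Shares, correlations and exact permutation tests were made in Python 3.11.15 (scipy 1.17.1, numpy 2.4.6, pandas 2.3.3).

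The 4 named transcripts were, among those called with and without plumule library 1 whose libraries did not overlap, the largest rise and fall and, of the rest, the riser of highest plumule mean and the faller of highest seed mean. The comparison, lists and tests were chosen with earlier results of these data known. Planned gene lists could not be used without gene names. Near-identical assembled copies share reads, so values of single transcripts of a family are uncertain. Alternatives were other pseudocounts, filters and scalings, library weights, no intensity trend, the compared libraries only, a replicate block and leaving out libraries.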

Additional observations from a re-analysis of the deposited data

How the results depend on the processing

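No direction of the 4 named transcripts turned under any of 20 alternatives, and TRINITY_DN11542_c0_g1_i1 and TRINITY_DN17263_c0_g1_i1 stayed called in all 20, with log2 differences from 7.68 to 11.98 and from -13.64 to -9.30. With only the compared libraries in the fit, rises numbered 3283 and falls 2534, leaf-root calls 13581 and panicle calls 452, fits with fewer residual degrees of freedom. In that fit the calls of TRINITY_DN36129_c0_g1_i1 (2.60, limma adjusted p = 0.97) and TRINITY_DN7657_c1_g1_i63 (-3.19, adjusted p = 0.98) ended with SEs of 8.41 and 11.4; without the intensity trend as well, an alternative chosen after seeing the data, the adjusted p-values were 0.0069 (SE 0.245) and 0.16 (SE 1.04), and 3652 rose and 2894 fell. A pseudocount of 5 gave 2888 rises and 2290 falls. A common sum gave 11818 panicle calls. Leaving out 1 library of the groups compared gave 5312 to 6979 rises, 4300 to 5531 falls, 20574 to 23545 leaf-root calls and 4554 to 7233 panicle calls. The plumule-minus-seed difference in transcripts at 1 or more then ran from 1833 to 6214, and that in the top 10 share from -5.22 to 0.00498 percentage points, turning without germinating seed library 1. All other alternatives left these counts within 1.5 times.

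The replicate block gave 6472 rises and 5041 falls. Same-numbered plumule and seed libraries deviated from their tissue means with correlations of 0.0430, 0.00975 and -0.0339, so the numbers do not pair them, and only library 1 of plumule correlated best with its own number. Lists called without a library, with its tissue mean taken over the rest, and the other scalings of the balance by level were chosen after seeing the data.

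Depth is unknown, gene names were not used, and plumule and germinating seed have 3 libraries each. A listing at 0 does not show absence.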

Other observations

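Transcripts that the assembler placed in the same read cluster, a group joined by shared sequence, did not always move together. Of 5727 clusters with several tested transcripts, 507 held at least 2 called transcripts. In 184 of these all calls were rises and in 201 all were falls, while 122 held a rise and a fall. Without plumule library 1 the numbers were 182 with rises only, 182 with falls only and 99 with both, of 463, and without germinating seed library 1 they were 148, 207 and 111 of 466. Members of a cluster can be splice forms, alleles or related genes, and how kallisto divided shared reads among them was not tested.

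The spread within the tissues differed by library. Over 11845 transcripts with a mean log2(value + 1) at or above that of a value of 10, the median SD of the log2 values was 0.215 in plumule and 0.273 in germinating seed. Without library 1 of each tissue it was 0.198 in plumule and 0.178 in germinating seed, and without plumule library 2 it was 0.137. Among these better expressed transcripts, plumule libraries 1 and 3 were thus the closest pair of plumule libraries, although library 1 correlated least with the others over all tested transcripts.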
